A study of Mus musculus with 20 samples.

Results

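The mitochondrial beta-oxidation enzymes are described here across the 20 heart libraries of a mouse study of Acsl1, which couples long-chain fatty acids to coenzyme A before the mitochondrion can burn them. The set holds 10 of the 21705 genes in the deposited table, found by symbol: Acadvl, Acadl, Acadm, Acads, Hadha, Hadhb, Hadh, Echs1, Acaa2 and Decr1. Their Entrez gene numbers are, in that order, 11370, 11363, 11364, 11409, 97212, 231086, 15107, 93747, 52538 and 67460. All 10 passed the filter on low values, which asks for 10 or more in 5 or more libraries and kept 13548 genes.

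The study crossed genotype with drug in 4 groups of 5 libraries, stated by the submitters to be biological replicates. All mice were males on a C57Bl/J6 background and were given tamoxifen at 75 mg/kg on 4 days in a row, from an age of 6 to 8 weeks. Acsl1H-/- mice lost Acsl1 in the heart after tamoxifen and are called knockout, and their Acsl1flox/flox littermates, which carry the floxed gene, are called control. Each genotype was injected daily for 2 weeks with rapamycin, which inhibits the kinase mTOR, at 1 mg/kg, or with its vehicle of buffered saline, ethanol, Tween 20 and PEG-400. Ventricles were frozen 2 weeks after tamoxifen, and poly(A) RNA of whole ventricle was sequenced in 4 pools, each with at least 1 library of every group. The labels name neither the Cre line nor whether controls carry it, so an effect of Cre and the loss of Acsl1 cannot be told apart. Low values implied 11.5 to 21.1 M reads per library, with a median of 15.2 M.

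Mitochondrial beta-oxidation shortens a fatty acyl-CoA from its carboxyl end in a repeating cycle of dehydrogenation, hydration, another dehydrogenation and thiolysis, and each turn releases acetyl-CoA, reduced flavin and NADH. Separate enzymes take acyl chains of different length, and the long-chain steps after the first dehydrogenation sit together on the trifunctional protein of the inner membrane. The adult heart draws most of its energy from this pathway, and the nuclear receptor PPAR-alpha with its partner RXR, the estrogen-related receptors and the coactivator PGC-1alpha are known to control many of its genes.

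Acsl1 was low in every knockout library, which checks the genotype labels. Under vehicle the knockout mean was 1257 against 10084 in control, or 12.5%, and under rapamycin 1224 against 12639, or 9.68%. Both arms had p = 0.00794 in an exact two-sided permutation test, and 5 against 5 libraries can give no smaller p. All values are the submitters' upper-quartile-normalized expression estimates, in which 1000 is about the upper quartile of a library. In whole ventricle, fewer cells of a type and less RNA per cell cannot be told apart.

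The enzymes were abundant in every library, and none of the 10 passed the adjusted threshold in any comparison. Together they held 1.00 to 1.18% of the summed value in the control vehicle libraries and 1.05 to 1.47% in the knockout vehicle libraries. Under rapamycin the share was 1.13 to 1.31% in control and 1.14 to 1.34% in knockout libraries. The groups overlapped in both arms.

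**Figure D1:**
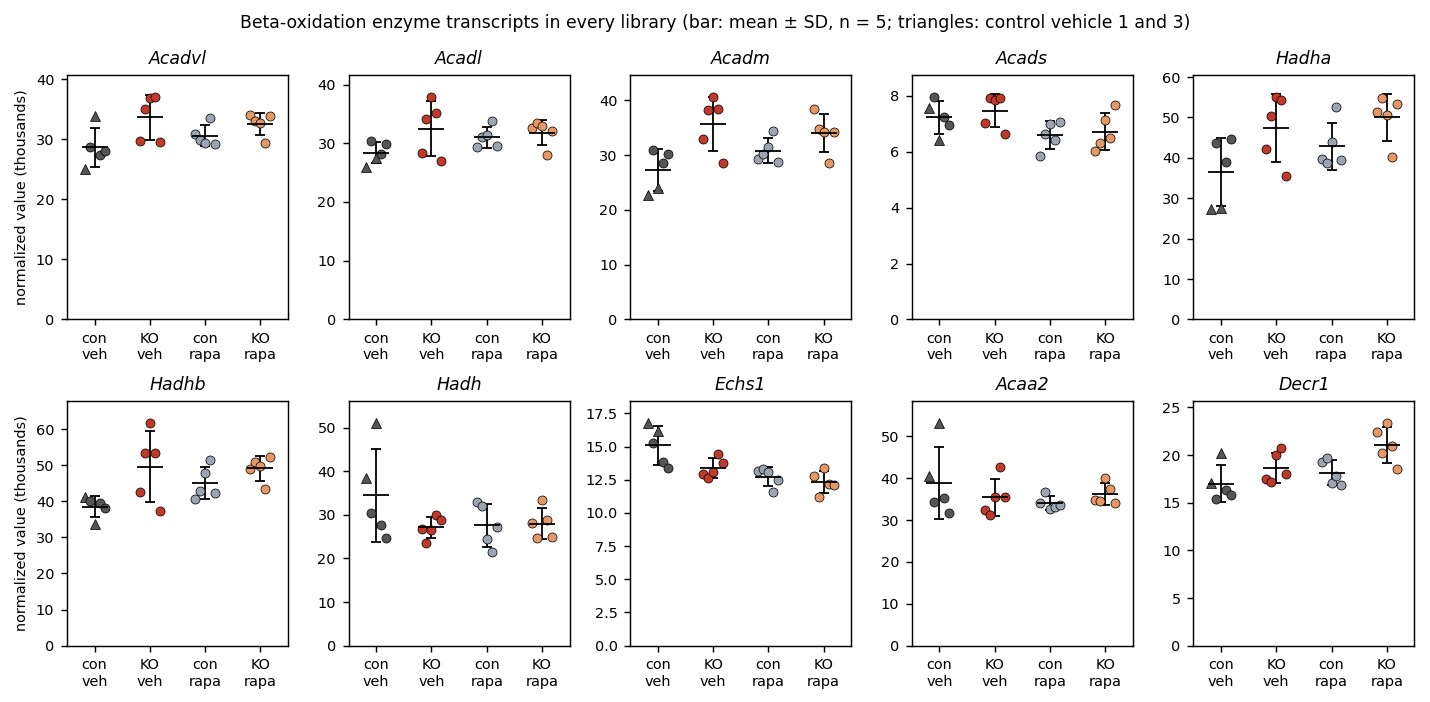
Normalized value of each of the 10 enzymes (vertical axes, in units of 1000, from 0) in the 20 libraries, by group: control (con) and knockout (KO), vehicle (veh) and rapamycin (rapa). Points are libraries, bars are the mean ± SD of 5, and triangles mark control vehicle libraries 1 and 3. The highest values of Acadl, Acadm, Hadha and Hadhb are those of knockout vehicle replicate 3 (40670 for Acadm), and the highest of Hadh and Acaa2 those of control vehicle replicate 3 (51028 for Hadh).

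The acyl-CoA dehydrogenases carry out the first step of each turn and pass electrons to the electron transfer flavoprotein. Acadm, the medium-chain enzyme, was at 22732, 31029, 23928, 28522 and 30289 in control vehicle libraries 1 to 5. In knockout vehicle libraries 1 to 5 it was at 32874, 38201, 40670, 38353 and 28519. Replicates 1 to 4 of the knockout lay above every control library, but replicate 5 lay inside the control range. The log2 change was 0.39 (SE 0.12), a 95% interval of 0.14 to 0.64, with limma's adjusted p = 0.0918. Within the 4 pools the difference was 0.37, 0.30, 0.51 and 0.34. With control vehicle libraries 1 and 3 left out, a pair unlike the others, the change was 0.24. Library 3 is the only control vehicle library of pool 3, and library 1 is 1 of 2 in pool 1. Here and for the enzymes below, differences from control vehicle in pool 3 rest wholly, and in pool 1 partly, on that pair. Under rapamycin the values were 29340.2, 30303, 31446, 34429 and 28676 in control and 38454.5, 34719, 34192, 28625 and 34220.5 in knockout libraries. These groups overlapped, and the change was 0.14 (SE 0.12, adjusted p = 1.00).

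Acadvl, the very-long-chain enzyme bound to the inner membrane, had a control vehicle range of 25087 to 33898 with a median of 28101, and a knockout vehicle range of 29501 to 37085 with a median of 35072. The log2 change was 0.23 (SE 0.10), with limma's adjusted p = 0.129, and 3 of the 4 pools had a positive difference. Acadl, the long-chain enzyme, ranged from 26005 to 30438.5 in control vehicle and from 27003.5 to 37914.5 in knockout vehicle libraries. Its change was 0.19 (SE 0.10, adjusted p = 0.199), positive in all 4 pools. For both genes 3 of the 5 knockout vehicle libraries lay above every control vehicle library. Acads, the short-chain enzyme, had the least genotype change of the 4 dehydrogenases under vehicle, 0.05 (SE 0.09, adjusted p = 0.732), with libraries from 6422 to 7971 in control and from 6647 to 7929.6 in knockout. It also had the lowest rapamycin change in knockout hearts, -0.15 (SE 0.09, adjusted p = 0.940), negative in all 4 pools.

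Hadha and Hadhb encode the subunits of the mitochondrial trifunctional protein: the alpha subunit carries the long-chain hydratase and hydroxyacyl-CoA dehydrogenase, and the beta subunit the thiolase. The pair is divergent, and the promoter windows are shown for that reason. The start sites lie 273 bases apart on opposite strands of chromosome 5, so the RefSeq windows from 250 bases before to 50 bases after each start, on build GRCm38.p6, share 228 bases. The Hadha window is chr5:30154931-30155230 on the minus strand and the Hadhb window chr5:30155003-30155302 on the plus strand. Capitals mark the shared bases, read in opposite directions, and lower case the bases of each window alone.
Hadha: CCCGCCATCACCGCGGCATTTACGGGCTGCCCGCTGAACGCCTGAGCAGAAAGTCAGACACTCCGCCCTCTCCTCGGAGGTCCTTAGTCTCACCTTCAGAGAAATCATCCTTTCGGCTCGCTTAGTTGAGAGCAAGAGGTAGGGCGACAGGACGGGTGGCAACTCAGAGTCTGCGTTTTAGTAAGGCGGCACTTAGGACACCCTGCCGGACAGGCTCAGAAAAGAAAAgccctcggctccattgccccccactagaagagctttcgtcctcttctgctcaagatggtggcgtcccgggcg
Hadhb: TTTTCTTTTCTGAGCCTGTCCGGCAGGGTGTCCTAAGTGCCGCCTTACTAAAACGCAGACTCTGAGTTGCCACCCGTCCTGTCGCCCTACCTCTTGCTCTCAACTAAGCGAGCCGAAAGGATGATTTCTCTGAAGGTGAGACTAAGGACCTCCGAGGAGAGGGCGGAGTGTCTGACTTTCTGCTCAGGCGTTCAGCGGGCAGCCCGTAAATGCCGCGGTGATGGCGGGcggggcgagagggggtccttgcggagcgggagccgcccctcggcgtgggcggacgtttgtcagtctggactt

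Hadha was at 27431, 43596, 27640.4, 39064 and 44619.7 in control vehicle libraries 1 to 5 and at 42268, 50356, 55123, 54267 and 35399.7 in knockout vehicle libraries 1 to 5. Hadhb was at 41214, 40031, 33717, 39376 and 38036 in the control and at 42495.5, 53422, 61638, 53315 and 37182 in the knockout vehicle libraries. Knockout replicates 2, 3 and 4 lay above every control library for both subunits, and replicate 5 lay inside the control range for both. The log2 change was 0.39 for Hadha (SE 0.16, interval 0.06 to 0.73, adjusted p = 0.118) and 0.35 for Hadhb (SE 0.12, interval 0.09 to 0.60, adjusted p = 0.104), positive in all 4 pools for each. Without control vehicle libraries 1 and 3 the change was 0.15 for Hadha and 0.32 for Hadhb. Under rapamycin it was 0.22 (SE 0.16) for Hadha and 0.13 (SE 0.12) for Hadhb, again positive in all 4 pools, with an adjusted p of 1.00 in limma for both.

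The ratio of Hadha to Hadhb was 0.666 to 1.17 in the control vehicle libraries, with the lowest ratios in replicates 1 and 3. In the other 3 groups it lay between 0.894 and 1.08. The subunits thus kept nearly the same ratio in the 15 libraries of those groups, while control vehicle libraries spanned a wider range. In replicates 1 and 3 long transcripts were low against short ones, as described below. Hadha has the longer transcript, of 4017 nucleotides against 2045 for Hadhb, and the part of length in this ratio was not tested.

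Echs1, Hadh and Acaa2 carry out the later steps on shorter chains. Echs1, the short-chain enoyl-CoA hydratase, was the one enzyme whose groups did not overlap in any of the 4 comparisons of a pair of groups, that of rapamycin against vehicle in control hearts. Its values were 16766, 15304, 16148.5, 13854 and 13353 in control vehicle and 13191, 13328, 13055, 11612.5 and 12477 in control rapamycin libraries. The highest rapamycin library lay only just under the lowest vehicle library. The log2 change was -0.24 (SE 0.09, interval -0.42 to -0.06), negative in all 4 pools, with limma's adjusted p = 0.328 at an unadjusted p of 0.0105. Without control vehicle libraries 1 and 3 it was -0.15. Of the 13548 genes tested, 1.46% did not overlap between these groups, and 1 of 10 enzymes is a small count to read against that share. Knockout hearts held 12967, 12612.5, 13105, 14475 and 13725 under vehicle and 12753, 11166, 13357, 12194 and 12099 under rapamycin. These groups overlapped, with a change of -0.12 (SE 0.09, adjusted p = 0.998).

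Hadh, the matrix dehydrogenase of medium- and short-chain hydroxyacyl-CoA, varied most among control vehicle libraries, at 38531, 30362, 51028, 27617 and 24699.6. The knockout vehicle libraries held 26736.5, 23582, 26485, 29964 and 28926, all within or below the control range. The log2 change was -0.30 (SE 0.17, interval -0.65 to 0.05), with limma's adjusted p = 0.213. It was negative in 3 pools, at -0.29, -0.36 and -0.88, and 0.28 in pool 4. The -0.88 is that of pool 3, where the control is library 3 alone. Acaa2, the matrix thiolase, had a control vehicle range of 31684 to 53174 and a knockout vehicle range of 31302 to 42656, with a change of -0.12 (SE 0.12, adjusted p = 0.504). Under rapamycin Hadh and Acaa2 changed by 0.03 (SE 0.17) and 0.09 (SE 0.12) with genotype, each with an adjusted p of 1.00 in limma.

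Decr1, the dienoyl-CoA reductase that prepares polyunsaturated chains for the cycle, was at 19284, 19725.5, 17101, 17791 and 16847 in control rapamycin and at 22438, 20220.9, 23349, 20916 and 18495.5 in knockout rapamycin libraries. Of the knockout libraries 4 lay above every control library, and replicate 5 lay inside the control range. The log2 change was 0.21 (SE 0.10, interval 0.01 to 0.42), positive in all 4 pools, with limma's adjusted p = 1.00 at an unadjusted p of 0.0399. It was the only enzyme of the 10 with an unadjusted p under 0.05 in that comparison. Under vehicle Decr1 ranged from 15415 to 20250.6 in control and from 17117 to 20719 in knockout libraries, with a change of 0.14 (SE 0.10, adjusted p = 0.314).

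Acadm, Acadvl and Echs1 were the members whose promoter windows hold AGGTCA, the half-site that nuclear receptors such as PPAR-alpha with RXR and the estrogen-related receptors are known to bind. The windows are on GRCm38.p6, Acadm at chr3:153944594-153944893, Acadvl at chr11:70015379-70015678 and Echs1 at chr7:140116372-140116671, all on the minus strand. They are shown because the regulators of these enzymes are receptors of that class. Capitals mark the half-site, which reads TGACCT in the Acadm window, where it lies on the reverse strand.
Acadm: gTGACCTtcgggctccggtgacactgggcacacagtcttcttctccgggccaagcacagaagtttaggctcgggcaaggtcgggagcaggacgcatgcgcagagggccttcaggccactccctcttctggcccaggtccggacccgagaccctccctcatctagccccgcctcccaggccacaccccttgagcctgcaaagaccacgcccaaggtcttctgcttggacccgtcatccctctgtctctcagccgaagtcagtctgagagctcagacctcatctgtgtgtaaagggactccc
Acadvl: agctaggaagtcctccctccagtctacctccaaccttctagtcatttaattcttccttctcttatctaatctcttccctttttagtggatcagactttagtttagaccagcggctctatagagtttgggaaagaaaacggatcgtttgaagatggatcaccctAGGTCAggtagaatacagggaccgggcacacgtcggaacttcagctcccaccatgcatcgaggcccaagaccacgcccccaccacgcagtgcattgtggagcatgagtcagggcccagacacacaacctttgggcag
Echs1: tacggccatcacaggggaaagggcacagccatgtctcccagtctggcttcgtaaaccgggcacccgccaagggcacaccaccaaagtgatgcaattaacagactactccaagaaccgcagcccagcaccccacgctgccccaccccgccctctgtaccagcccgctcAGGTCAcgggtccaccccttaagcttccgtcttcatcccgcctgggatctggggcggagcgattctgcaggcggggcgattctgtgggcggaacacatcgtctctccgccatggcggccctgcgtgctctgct

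Promoter windows were found for 8 of the 10 members, all but Acaa2 and Decr1. AGGTCA on either strand was in 3 of those 8 and in 16.3% of all 32851 windows. The longer AAGGTCA, which contains AGGTCA, was in the Acadm window and in 4.72% of all windows. The estrogen-related receptor element TCAAGGTCA, which contains both, and a direct repeat of AGGTCA spaced by 1 base, the arrangement PPAR-alpha with RXR is known to bind, were in none of the 8, and in 0.423% and 0.0396% of all windows. GGGCGG, the Sp1 box, was in 6 of the 8 (Acadl, Acads, Hadha, Hadhb, Hadh and Echs1) and in 35.7% of all windows, and CCAAT was in the Hadh window and in 37.4%. These matches describe letters in a window and were not tested as binding sites.

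Read over the set, the knockout comparison under vehicle had 0 of 10 enzymes past the adjusted threshold, beside 0.244% of all genes tested (33 genes). At an unadjusted p under 0.05 there were 4, Acadm, Hadhb, Hadha and Acadvl, all higher in knockout hearts, beside 31.8% of all genes (4315 genes). The median log2 change of the 10 was 0.16 against 0.07 over all genes, with 7 above 0 and 3 below, beside 56.5% of all genes above 0. The groups overlapped for all 10, beside 2.32% of all genes whose groups did not overlap. Taken as folds, the 95% intervals of the 10 enzymes ran from 0.638 to 1.66. Leaving out 1 library moved this count: without knockout vehicle replicate 5, Acadm, Hadha and Hadhb passed the adjusted threshold, among 2569 of 13518 genes (19.0%). Without control vehicle replicate 5, Acadm and Hadha passed it, among 3090 of 13528 genes (22.8%). Without control vehicle replicate 4 no enzyme passed, among 343 genes, and the count over all genes was 8 without control vehicle replicate 1, 9 without control vehicle replicate 3, 11 without knockout vehicle replicate 1 and 8 without knockout vehicle replicate 2, with no enzyme among them.

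Under rapamycin, 0 of 10 passed for knockout against control, beside 0.0221% of all genes (3 genes), and 1 of 10 at an unadjusted p under 0.05, beside 2.97%. The median change was 0.09, against -0.02 over all genes. Of the 10 enzymes 9 lay above 0, beside 44.3% of all genes, and enzymes that vary together are not separate observations. The folds' 95% intervals ran from 0.801 to 1.47. The groups overlapped for all 10, beside 0.878% of all genes that did not. The genotype effect averaged over the drug arms called none of the 10, beside 0.443% of all genes (60 genes). Its largest values were 0.31 for Hadha (SE 0.11, adjusted p = 0.216), 0.26 for Acadm (SE 0.08, adjusted p = 0.171), 0.24 for Hadhb (SE 0.09, adjusted p = 0.213), 0.18 for Decr1 (SE 0.07, adjusted p = 0.228) and 0.16 for Acadvl (SE 0.07, adjusted p = 0.249). These 5 had an unadjusted p under 0.05, beside 19.1% of all genes, and all were higher in knockout hearts. With quantile normalization Decr1 passed the threshold in that average (0.27, adjusted p = 0.0412), among 81 genes. The average also draws on control vehicle libraries 1 and 3, described below. Over the alternatives other than leaving out 1 library, Hadha ran from 0.11 to 0.41 in it and Acadm from 0.14 to 0.36.

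Rapamycin called 0 of 10 in control hearts, where it called no gene at all (0%) in limma and 14.9% of genes (2024) had an unadjusted p under 0.05. Besides Echs1, the changes ran from -0.29 for Hadh (SE 0.17) to 0.26 for Hadha (SE 0.16), with a median of 0.10 against 0.07 over all genes. In knockout hearts rapamycin again called 0 of 10, beside 0.00738% of all genes (1 gene), with none under an unadjusted p of 0.05 beside 5.71% and none without overlap beside 1.85%. There the changes ran from -0.15 for Acads to 0.18 for Decr1 (SE 0.10, adjusted p = 0.925), with a median of -0.01 against -0.02. The folds' 95% intervals were 0.642 to 1.51 in control and 0.787 to 1.34 in knockout hearts. Averaged over genotypes, rapamycin called 0 of 10, beside 0.125% of all genes (17 genes, and 0 with a term for pool, with 3 to 17 when 1 library was left out). Echs1 was at -0.18 (SE 0.06, adjusted p = 0.332) and Acads at -0.14 (SE 0.06, adjusted p = 0.507), the only members at an unadjusted p under 0.05, beside 9.23% of all genes.

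The difference between the genotype effects of the drug arms was tested as an interaction, which called none of the 10 and no gene overall (0%), with 8.30% of genes at an unadjusted p under 0.05 and no member among them. The interaction ran from -0.25 for Acadm (SE 0.17, interval -0.60 to 0.10) to 0.33 for Hadh (SE 0.24, interval -0.17 to 0.82). The adjusted p-values of the 10 lay between 0.538 and 0.944 in limma. The intervals of Acadm, Hadha and Hadhb hold differences as large as their genotype changes under vehicle.

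**Figure D2:**
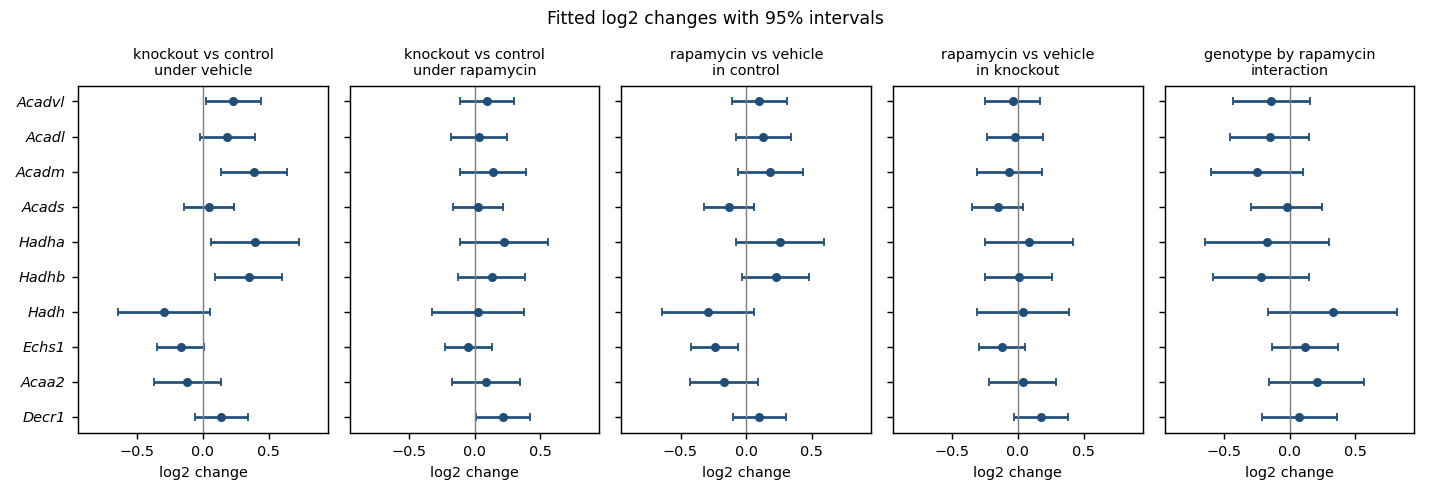
Fitted log2 change (horizontal axes) of each enzyme in 5 comparisons, with 95% intervals from the fit of all 20 libraries. The intervals of Acadvl, Acadm, Hadha and Hadhb lie above 0 in the first panel, Decr1 just above 0 in the second and Echs1 below 0 in the third, while none is clear of 0 in the last pair of panels.

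Levels between genes were compared per kilobase of median annotated transcript, since the estimates grow with transcript length. Averaged over all groups on that scale, Acaa2 was the most abundant, at 23859 ± 3288 (mean ± SD over 20 libraries), followed by Hadhb at 22269.7 ± 3428, Hadh at 16366 ± 3630.5 and Acadl at 16143 ± 1608. Acadm followed at 15621 ± 2327, Acadvl at 14979 ± 1545, Hadha at 11009 ± 2113, Echs1 at 8592 ± 904, Decr1 at 6325 ± 740.1 and Acads at 3748 ± 349.9. The most abundant enzyme was thus 6.37 times the least abundant, and Hadha, with the longest transcript, was lower per kilobase than its partner Hadhb.

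Neighbours in that order were not all apart. Acadvl lay above Hadha, Echs1 above Decr1 and Decr1 above Acads in all 20 libraries, and Hadhb lay above Hadh in 18, Hadha above Echs1 in 17 and Acadm above Acadvl in 15. Acaa2 lay above Hadhb in 13 of 20, Hadh above Acadl in 10 and Acadl above Acadm in 14, and these neighbours differed by less than their SDs. The order also differed between groups. Hadhb lay above Acaa2 in both knockout groups, with means of 24259 and 23401 under vehicle and 24009.8 and 23889.5 under rapamycin, and Acadm lay above Acadl in both. In control vehicle libraries Hadh (19255) lay above Hadhb (18814), Acadvl above Acadm and Echs1 above Hadha. Over all libraries the order was the same with the longest transcript of each gene. Without control vehicle libraries 1 and 3, Hadh moved from rank 3 to rank 5, behind Acadl and Acadm.

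**Figure D3:**
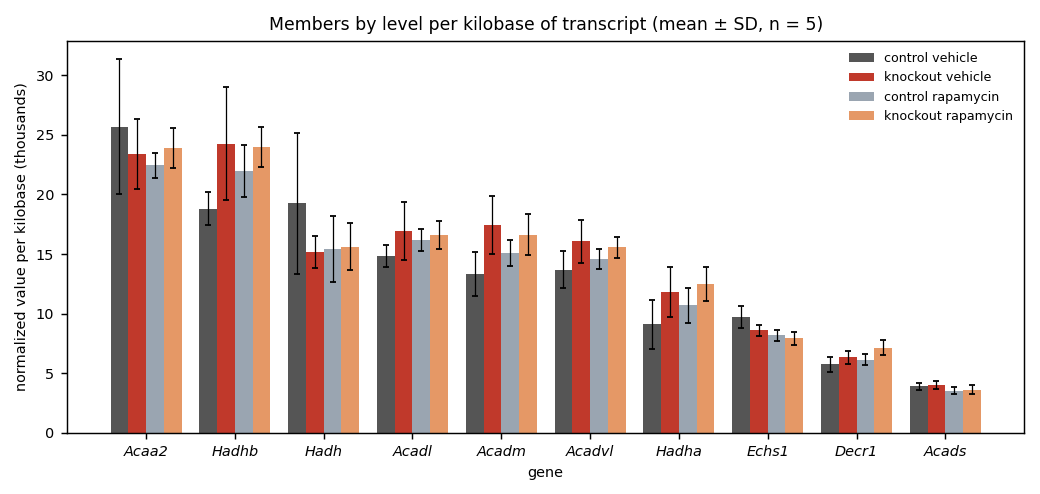
Normalized value per kilobase of median annotated transcript (vertical axis, in units of 1000, from 0) for the 10 enzymes in order of their mean over all groups. Bars are group means of 5 libraries and error bars the SD; the Acaa2 mean over 20 libraries is 6.37 times that of Acads, and the middle 4 genes overlap.

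Control vehicle libraries 1 and 3 stood apart from the rest. The knockout comparison under vehicle and the rapamycin comparison in control hearts both rest on them, and the interaction and the averaged effects use them as well. In these libraries long transcripts, of 4145 nucleotides or more, were low against short ones, of up to 1769: their scores of long minus short were -1.01 and -1.14 log2 units, against -0.44 to 0.56 in the other 18. The lowest of those 18 was knockout vehicle replicate 5. Against the mean of control vehicle 2, 4 and 5, Hadha, the longest transcript of the set at 4017 nucleotides, was at -0.63 and -0.62 in libraries 1 and 3. Acadm was at -0.40 and -0.32. Hadh was at 0.49 and 0.89, Acaa2 at 0.27 and 0.66 and Echs1 at 0.25 and 0.19, the 3 shortest transcripts, of 1789, 1516 and 1557 nucleotides. Decr1, at 2959 nucleotides the second longest, was at 0.11 and 0.35, so the members did not follow length alone.

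**Figure D4:**
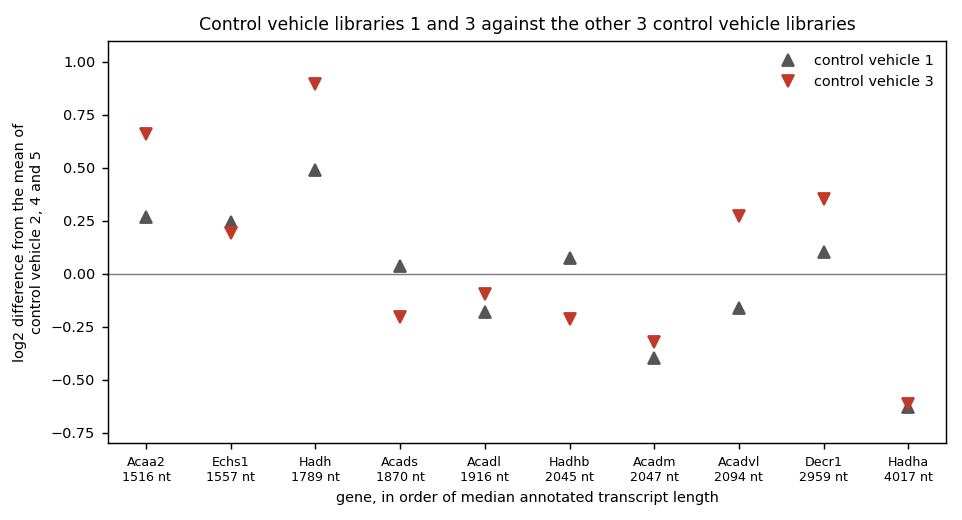
Log2 difference of control vehicle library 1 and library 3 from the mean of control vehicle 2, 4 and 5 (vertical axis), with the 10 enzymes in order of transcript length (horizontal axis, nucleotides under each name). Acaa2, Echs1 and Hadh lie above 0 in both libraries and Hadha and Acadm below 0 in both, while Acads, Hadhb and Acadvl differ in sign between them.

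Without both libraries, the knockout change under vehicle was 0.25 for Acadvl and 0.23 for Decr1, beside the 0.15, 0.24 and 0.32 given for Hadha, Acadm and Hadhb. The values of Hadha and Acadm were then smaller by more than 1.5 times, that of Hadhb stayed near its value with all libraries, and that of Decr1 was higher. Hadh was then at -0.02 and Echs1 at -0.08, nearer to 0 than with all libraries, and Acaa2 was at 0.07, above 0. For rapamycin in control hearts, Hadha was at 0.0087 without both libraries. With the score as a covariate, an alternative chosen after seeing the data, the knockout change under vehicle was 0.06 for Hadha and 0.18 for Acadm.

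Within groups, 9 of the 10 enzymes, all but Acads, varied as 2 sets, named here after their correlations were seen. The long-minus-short score also varied within groups, at 0.12, 0.56, 0.48, 0.28 and -0.44 in knockout vehicle libraries 1 to 5. In each group but control vehicle, Hadha was lowest in the library with the lowest score. The correlations were not adjusted for the score, and its part in the 2 sets was not tested. Deviations from the group means over the 20 libraries were correlated for all 45 pairs, with permutation p-values (100000 permutations, two-sided) adjusted over the 45. For 18 pairs both Pearson's and Spearman's adjusted p lay under 0.05, and of these 15 were positive and 3 negative. Removing group means leaves fewer free values than libraries, and the permutations made no allowance for this. Spread also differed between groups, as for Hadh, with an SD of 10606 in control vehicle and 2471 in knockout vehicle libraries. The p-values may thus be too small. Pairs near the threshold, such as Hadha with Echs1 (adjusted permutation p = 0.0390 and 0.0308), and the count of 18 are uncertain. Acadvl, Acadl, Acadm, Hadha and Hadhb formed one set, in which all pairs but Acadvl with Hadha and with Hadhb were among the 18. The highest value was that of Acadm with Hadha, a Pearson r of 0.945 (p = 1e-05, adjusted p = 7.5e-05) and a Spearman rho of 0.922 (p = 1e-05, adjusted p = 9e-05), and r was 0.919 without the 2 farthest libraries. For Acadl with Acadm r was 0.897 (p = 1e-05, adjusted p = 7.5e-05) and rho 0.899 (p = 1e-05, adjusted p = 9e-05), and r was 0.865 without the 2 farthest. A p of 1e-05 is the smallest that these permutations can give.

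The subunits Hadha and Hadhb, whose promoter windows overlap, had r = 0.716 (permutation p = 0.00026, adjusted p = 0.0011) and rho = 0.648 (permutation p = 0.0025, adjusted p = 0.00865). Their r was 0.797 without the 2 farthest libraries and 0.838 without control vehicle 1 and 3. Hadha was closer to Acadm and to Acadl (r = 0.850, rho = 0.878, adjusted permutation p = 7.5e-05 and 9e-05) than to its own partner, though the difference between these correlations was not tested.

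The other set held Hadh, Echs1, Acaa2 and Decr1. For Hadh with Acaa2 r was 0.859 (permutation p = 1e-05, adjusted p = 7.5e-05) and rho 0.829 (p = 3e-05, adjusted p = 0.000225), with r = 0.714 without the 2 farthest. For Hadh with Echs1 r was 0.828 (permutation p = 2e-05, adjusted p = 0.000129) and rho 0.877 (p = 1e-05, adjusted p = 9e-05), with r = 0.830 without the 2 farthest. Acaa2 with Decr1 had r = 0.828 and rho = 0.835 (adjusted permutation p = 7.5e-05 and 9e-05), with r = 0.706 without the 2 farthest. Between the sets no positive pair was among the 18, and Hadha with Hadh was the lowest, at r = -0.701 (permutation p = 0.00047, adjusted p = 0.00163) and rho = -0.701 (permutation p = 0.00077, adjusted p = 0.00346), with r = -0.727 without the 2 farthest and -0.602 without control vehicle 1 and 3. Acads reached the threshold with Hadhb alone (r = 0.614, rho = 0.571, adjusted permutation p = 0.0112 and 0.0259). All pairs share the same libraries, depths and scaling, so they are not independent of each other.

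**Figure D5:**
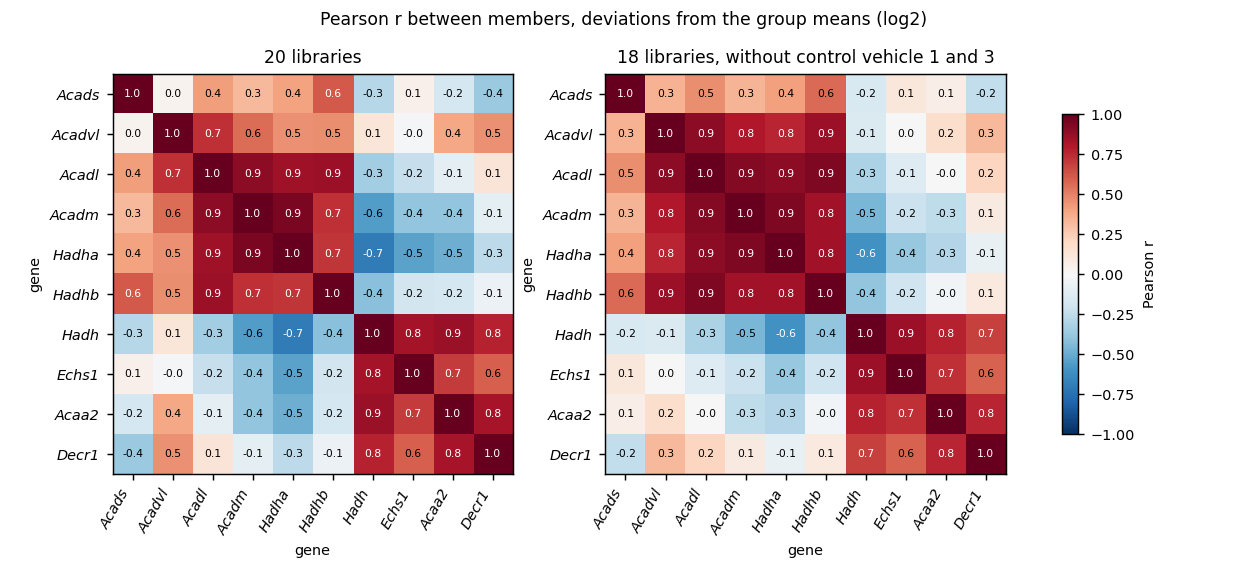
Pearson r between the enzymes' deviations from the group means (log2), for all 20 libraries on the left and for 18, without control vehicle 1 and 3, on the right; rows and columns are genes and the colour scale runs from -1 to 1. One block holds Acadvl, Acadl, Acadm, Hadha and Hadhb, with Acadm and Hadha at 0.945, and the other Hadh, Echs1, Acaa2 and Decr1; both blocks are seen in both panels.

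The mean of the 10 is not a profile that all of them share. The r of an enzyme with the mean of the other members ran from 0.05 for Hadh to 0.71 for Acadvl. It was 0.16 for Echs1, 0.20 for Acads and 0.28 for Hadha, so likeness to the mean is not likeness to each enzyme. The genes outside the set that varied most like that mean were led by Idh3g (r = 0.866, rho = 0.917 over 20 libraries). Idh3g is a subunit of the citric acid cycle's NAD-dependent isocitrate dehydrogenase. The next were F830016B08Rik (r = 0.816), Dvl2, a Wnt signalling protein (0.800), and Pfkfb1, which sets the level of a glycolytic activator (0.800). Mrpl39, a mitochondrial ribosomal protein, had r = 0.762, Mipep, a mitochondrial peptidase, 0.761, and Aldh6a1, an enzyme of valine breakdown, 0.738. Gbas (0.726), Shmt2, the mitochondrial serine hydroxymethyltransferase (0.726), and Rbm12b (0.706) completed the first 10. They were chosen for this likeness among all genes tested with a mean of at least 100, so the values carry no test.

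The neighbouring steps of the pathway also had no call. Of 12 auxiliary and electron transfer genes, 0 passed in any comparison, and in knockout vehicle hearts 5 were higher and 2 lower at an unadjusted p under 0.05, beside 31.8% of all genes. Etfa, the alpha subunit of the electron transfer flavoprotein that takes up electrons from the acyl-CoA dehydrogenases, was at 11502 ± 1663 in control and 15414 ± 2681 in knockout vehicle libraries (log2 change 0.42, SE 0.13, adjusted p = 0.0966 in limma, n = 5 each). Its partner Etfb was at 28556 ± 8924 and 21506 ± 4593 (-0.38, adjusted p = 0.154), and Etfdh, which hands the electrons to ubiquinone, at 14176 ± 1409 and 18894.5 ± 3540.0 (0.40, adjusted p = 0.0974). Ech1 and Eci1, which handle unsaturated chains like Decr1, were at -0.28 and -0.26.

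None of the 6 carnitine shuttle genes passed in any comparison. Cpt1a, the liver-type carnitine palmitoyltransferase, had the smallest p under vehicle, at 1209.6 ± 448 in control and 1726 ± 264 in knockout libraries (0.58, SE 0.22, limma adjusted p = 0.110), and the muscle-type Cpt1b was at 19941 ± 3264 and 19789 ± 687. Of 12 peroxisomal beta-oxidation genes none passed in any comparison.

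Among 11 regulators of fatty acid oxidation none passed. Nrip1, a corepressor of nuclear receptors, had the smallest p under vehicle (0.87, SE 0.32, limma adjusted p = 0.107), and Ppara was at 2038 ± 804 in control and 2869.5 ± 844 in knockout vehicle libraries.

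The 13 citric acid cycle genes had no call, with a median of 0.07 in the knockout comparison under vehicle, and Dld, the dihydrolipoamide dehydrogenase shared by the 2-oxoacid complexes, had the smallest p there (0.53, SE 0.17, limma adjusted p = 0.0966). Of 82 tested oxidative phosphorylation subunits none was called. Their median under vehicle was -0.45, with 49 lower and 2 higher at an unadjusted p under 0.05 beside 31.8% of all genes, against a median of 0.16 for the beta-oxidation enzymes and 0.07 for all genes. For genotype under rapamycin their median was -0.12, against -0.02 for all genes. There 79 subunits lay below 0 and 3 above, beside 44.3% of all genes above 0. At an unadjusted p under 0.05 there were 0, beside 2.97% of all genes. For rapamycin in control hearts the median of the subunits was -0.32. The comparisons of genotype under vehicle and of rapamycin in control hearts rest on control vehicle libraries 1 and 3. In those libraries long transcripts were low against short ones. No test was made of the difference between these lists.

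Markers of cell types were summed in each library, since whole ventricle holds more than muscle cells. All 10 cardiomyocyte markers were present, with summed values of 1.85e+06 to 2.46e+06 over the 20 libraries, and their groups overlapped. The sum hides single markers that moved in opposite directions. For genotype under vehicle their log2 changes ran from -0.63 to 0.73. At an unadjusted p under 0.05, 2 were higher and 2 lower, beside 31.8% of all genes, and none was called. The sum of 9 fibroblast markers was 62060 to 79315 in control vehicle and 86264 to 148095 in knockout vehicle libraries, and 71764 to 92078.5 and 92421.5 to 149276 under rapamycin, with no overlap in either arm. Under rapamycin the highest control sum lay only just under the lowest knockout sum. Of all single genes tested, 2.32% did not overlap under vehicle and 0.878% under rapamycin. Of the 9 markers, none passed under vehicle, beside 0.244% of all genes. In the averaged genotype effect 3 of the 9 passed as higher, beside 0.443% of all genes. The sum of 6 erythroid markers was 60723 to 155367 in control vehicle and 13554 to 46614 in knockout vehicle libraries. In that comparison 2 of the 6 passed as lower, beside 0.244% of all genes. Under rapamycin the sum was 38923 to 100946 in control and 29758 to 104799 in knockout libraries, which overlap. There 0 of the 6 had an unadjusted p under 0.05, beside 2.97% of all genes. The sum of 6 atrial markers was 2222 to 7393 in control vehicle and 4638 to 66051 in knockout vehicle libraries, which overlap. The 6 adipocyte markers, which could mark another tissue rich in lipid, summed to 9.94 to 809.7, near 0 beside the enzymes. No listed marker was at 0 in every library, and the part of other cells in the enzymes' values was not tested.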

How the data were processed

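Poly(A) RNA of heart ventricle was sequenced in 20 libraries, 5 per group, with groups and replicate numbers taken from the labels' titles. Per the submitters' processing notes, reads were processed on mouse build mm9 with Picard 1.64, SAMtools and RSEM; the aligner is not given in the sources used here. Each deposited value is a normalized signal: the authors scaled RSEM's estimate for the gene to a common upper quartile, found here at 996.6 to 1000 per library. The values are not counts. Between 87.9% and 89.6% of low values in the 20 libraries were whole reads within 0.05 reads, too few to treat reads as recovered, so depth is an estimate.

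Values were analysed as log2(value + 1), which understates changes of low genes, in 1 linear model of all 20 libraries with limma 3.58.1 (R 4.3.3, intensity trend). P-values were adjusted by Benjamini-Hochberg over 13548 genes with a threshold of 0.05. The script was tested on simulated data. Acsl1 and the 10 enzymes are named in every comparison, and of each other list every called gene or else the gene with the smallest p; other genes named beside them (Etfb, Etfdh, Ech1, Eci1, Cpt1b, Ppara) were chosen after their values were seen. Not every gene chosen this way is reported here. Like genes are the 10 with the highest r. Members and lists were chosen with earlier results of these data known. Lengths are from GENCODE M21 and promoter windows from RefSeq on GRCm38.p6. Alternatives were a fit with a term for pool, a replicate block, robust fitting with array weights, only the groups compared, quantile and median-ratio normalization, pseudocounts of 0.5 and 10, no filter or a minimum mean of 100, leaving out libraries, and a length-score covariate added after seeing the data.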

Additional observations from a re-analysis of the deposited data

Results flagged for a closer look

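In 44 sets of 5 libraries (the 10 enzymes and Acsl1 in each group), 3 had a library whose gap to the nearest other exceeded 0.71 of the range, and chance gives about 1 in 20. Acadvl and Acadl were low in knockout rapamycin replicate 4, at 29431 (gap 0.720 of the range) and 27998 (0.744). Acsl1 was high in control rapamycin replicate 4, at 16661 (0.727).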

How the results depend on the processing

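Beside leaving out 1 library, 12 alternatives were run for the 4 comparisons of a pair of groups and 11 for the interaction and the averaged effects, which cannot be had from only the groups compared. No enzyme was called in any of these, except Decr1 with quantile normalization in the averaged genotype effect (1 call). With 1 library left out, the knockout comparison under vehicle had 0 to 3 calls. Of 2367 values under alternatives for 75 gene results, 56 changed sign, all of them values of enzymes that were not called with all libraries. With quantile normalization the median change of the 10 became 0.32 for genotype under vehicle, 0.22 for rapamycin in control, -0.20 for the interaction and 0.24 for the averaged genotype effect, and with the length score as covariate it became 0.060 under vehicle; the cause was not tested. Quantile normalization moved the median of all genes under vehicle from 0.07 to -0.04.

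For genotype under vehicle, signs changed for Acads (-0.018), Hadh (0.024) and Acaa2 (0.061) with the score as covariate, Acads (-0.0046) with median-ratio rescaling, and Acaa2 with quantile normalization (0.0082) and without control vehicle 1 and 3 (0.067). For genotype under rapamycin, Acads was at -0.039 with robust fitting. For rapamycin, Acaa2 in control was at 0.015 without control vehicle 1 and 3 and Hadhb in knockout at -0.071 with quantile normalization. For the interaction, Acads was at 0.033, Hadha at 0.11 and Decr1 at -0.0030 with the covariate, Acads at 0.041 with median-ratio rescaling, Echs1 at -0.045 and Decr1 at -0.045 with quantile normalization, and Acads at 0.012, Hadha at 0.078 and Decr1 at -0.016 without control vehicle 1 and 3. For the averaged genotype effect, Acads was at -0.0014, Hadh at 0.053 and Acaa2 at 0.090 with the covariate, Acads at -0.0021 and Acaa2 at 0.041 with robust fitting, Acaa2 at 0.067 with quantile normalization, and Hadh at 0.0034 and Acaa2 at 0.078 without control vehicle 1 and 3. For averaged rapamycin, Acadm was at -0.0089 with the covariate, and without control vehicle 1 and 3 Acadm was at -0.012, Hadh at 0.013 and Acaa2 at 0.025. The causes of these changes were not tested.

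With 1 library left out, Acaa2 ranged from -0.19 to 0.00038 for genotype under vehicle, and Acads from -0.023 to 0.065 and Hadh from -0.059 to 0.10 under rapamycin. For rapamycin in knockout, Acadl ranged from -0.086 to 0.036, Hadha from -0.014 to 0.16, Hadhb from -0.093 to 0.089, Hadh from -0.027 to 0.082 and Acaa2 from -0.0075 to 0.10. Acads ranged from -0.070 to 0.020 in the interaction and Acaa2 from -0.049 to 0.044 in the averaged genotype effect.

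The replicate block gave 0 enzymes called in every comparison and a median change of 0.16 under vehicle. Over all genes it called 49 against 33 under vehicle, 62 against 60 in the averaged genotype effect and 5 against 17 for averaged rapamycin. Libraries of the same number shared only a number, with correlations from -0.51 to 0.43. The lowest value of any enzyme in any library was 5859.8, so depth did not limit detection.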
